A study of Mus musculus with 96 samples.

Results

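The rows of the expression table that carry the name of a numbered microRNA gene or of a let-7 gene were analysed, in single EL4 cells with and without knockdown of Ctcf. Of 24057 rows, 1103 had such a symbol, and 181 of them (16.4%) had a TPM above 0 in at least 1 of the 95 cells kept. The other 922 rows were at 0 in every kept cell. Of the 181 entries, 177 were named for a short precursor and 4 for a host transcript (Mir155hg, Mir17hg, Mir22hg and Mir99ahg).

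EL4 is a lymphoma line from a C57BL/6 N mouse with T-cell features. All cells received an shRNA by retroviral or lentiviral infection and were sorted as GFP+, after which they were captured on a Fluidigm C1 integrated fluidics circuit (IFC) and sequenced with the SMARTer protocol, and 24 cells were taken from each of 4 cultures. The cultures labelled shLuc #1 and shLuc #2 carried an shRNA against luciferase and are called WT, and the cultures labelled shCTCF #1 and shCTCF #2 carried an shRNA against Ctcf and are called CTCF-KD. The methods list 2 shRNA sequences against Ctcf, and whether both CTCF-KD cultures carried the same one is not stated. The cultures #1 formed experiment 1 and the cultures #2, from the second knockdown, experiment 2, with a separate IFC for each culture. Culture, circuit and shRNA within an experiment therefore cannot be told apart, and with 2 cultures against 2 an exact two-sided permutation test cannot give a p below 0.333. After cells with fewer than 3000 genes were left out, 24, 23, 24 and 24 cells remained in the WT cultures #1 and #2 and the CTCF-KD cultures #1 and #2, and values by culture are given in that order. The cell left out had 81 genes and none of the microRNA entries.

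MicroRNAs are cut from long, polyadenylated primary transcripts, which may be genes of their own or the transcripts of a host gene that carries the hairpin in an intron or exon. The microprocessor of Drosha and Dgcr8 releases the hairpin in the nucleus, Xpo5 exports it, and Dicer1 cuts it to a duplex, of which 1 strand is loaded into an Argonaute protein. The seed, bases 2 to 8 of the mature strand, pairs with target mRNAs. Mature microRNAs have no poly(A) tail, and the SMARTer protocol primes on such tails. A value in an entry was therefore read here as sequence counted within the annotated hairpin, and not as a level of mature microRNA.

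RefSeq (GRCm38.p6) gave mature sequences for 157 of the 181 entries. The hairpins of the following 3 entries, which are described in detail below, show how little sequence an entry spans. Capitals mark the mature sequences within the hairpin.
Mir3064, chr11:106782693-106782759, minus strand: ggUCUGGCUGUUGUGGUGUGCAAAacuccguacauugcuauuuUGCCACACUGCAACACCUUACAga
Mir3091, chr2:180257536-180257611, plus strand: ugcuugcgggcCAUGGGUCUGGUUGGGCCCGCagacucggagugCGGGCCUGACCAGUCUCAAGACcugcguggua
Mir20a, chr14:115044157-115044263, plus strand: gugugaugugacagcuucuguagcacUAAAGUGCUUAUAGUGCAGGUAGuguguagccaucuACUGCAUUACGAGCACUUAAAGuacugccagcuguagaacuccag

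The 256 mature sequences of the entries held 245 different seeds, and 9 seeds were shared by 2 or more entries. The shared seeds include those of 3 well-known families, and these are shown with the seed in capitals.
miR-17-5p of Mir17: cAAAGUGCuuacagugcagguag
miR-20a-5p of Mir20a: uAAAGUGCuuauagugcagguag
miR-93-5p of Mir93: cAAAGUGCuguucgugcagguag
miR-181a-5p of Mir181a-1 and Mir181a-2: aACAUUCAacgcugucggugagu
miR-181b-5p of Mir181b-2: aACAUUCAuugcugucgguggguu
let-7d-5p of Mirlet7d: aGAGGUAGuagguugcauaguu
let-7g-5p of Mirlet7g: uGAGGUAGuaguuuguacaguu

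TPM scales reads by the length of the gene and by the total of the cell, so that all values of a row are whole multiples of what 1 read was worth in each cell, and whole reads were recovered on that basis. Of 504605 values above 0, 504605 lay within 0.001 of a whole number of reads. For a row with a value in 1 cell only, as for 87 of the entries, this holds by construction. With values in 2 cells, as for 27 entries, it holds almost by construction, since many step sizes were tried. Of 9602 genes with values in 10 or more cells, 9602 had an implied length within 0.01 of a whole number of bases. The median length of the short entries was 81 bases, against 2905 bases for 9582 other genes with values in at least 10 cells. In the median cell, 1 read was worth 110 TPM on a short entry of median length and 3.06 TPM on another gene of median length. On Gapdh, 1 read was worth 5.94 TPM. The worth of 1 read on the median short entry ranged over cells from 60.2 to 743 TPM, with medians by culture of 93.2, 116, 97.8 and 192 TPM. The shallowest culture was shCTCF #2, where a cell had a median of 131114 reads, against 247622 and 230493 in the WT cultures and 234292 in shCTCF #1. The median number of genes per cell did not follow depth. It was 4771 and 4635 in the WT cultures, against 6172.5 in shCTCF #1 and 5656 in shCTCF #2.

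Reads and TPM gave the entries very different weight. In all, 2424 of 20527673 recovered reads fell on the 181 entries, which is 0.0118%. In TPM the entries summed to a mean of 2560 per cell, which is 0.256% of the total of a cell. Of their 732 values above 0, 319 (43.6%) were a single read, 216 were 2 or 3 reads and 45 were 10 or more. The median value above 0 was 2 reads or 202 TPM. Reads are not independent molecules, since no molecular identifiers are described. For 11 entries the length could not be taken from the annotation, and the smallest step was counted as 1 read, so their reads could be too low.

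Most entries were seen in few cells. A value above 0 was found in 1 cell for 87 entries, in 2 cells for 27, in 3 or more cells for 67 and in 10 or more cells for 20. There were 41 entries with 1 read in all. Entries with a value in WT and CTCF-KD cells numbered 72, with 53 in WT cells only and 56 in CTCF-KD cells only, and 31 had a value in each of the 4 cultures. The same split was not made over all genes, so nothing about the conditions is read from it. At this depth an entry at 0 was not detectable, which does not show that it was absent, and an entry seen once belongs to whichever culture held that cell. The 10 entries with the most reads held 47.3% of all reads on the entries. Small nucleolar and Cajal body RNA entries are of similar length (median 77 bases) and were counted more often. Of these, 90 of 111 rows had a value, with 6410 reads, 30.9% of values at 1 read, and a mean of 12.2 entries and 6029 TPM per cell.

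**Figure D1:**
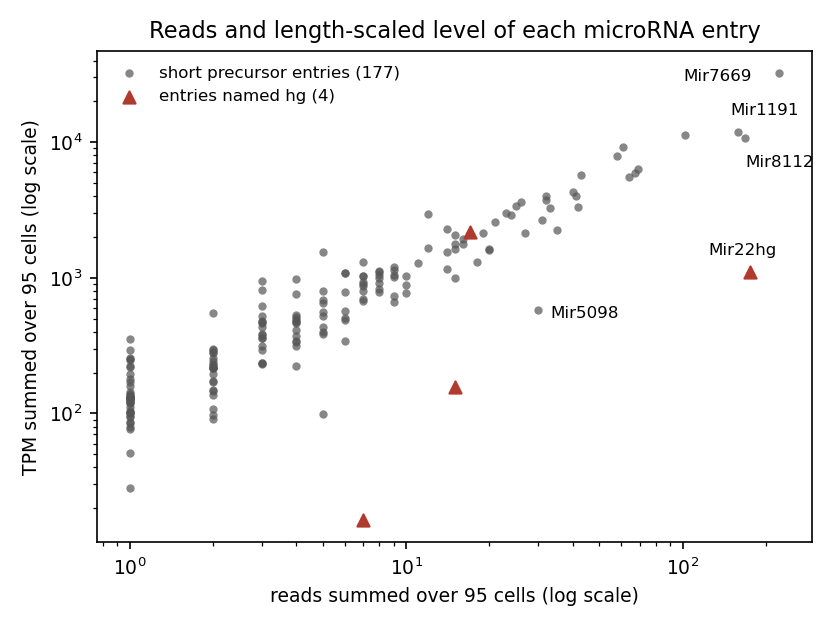
Each point is a microRNA entry, with its recovered reads on the x axis and its TPM on the y axis, both summed over 95 cells and on log scales. Grey points are the 177 short precursor entries and triangles the 4 entries named for a host transcript. Mir22hg, with 175 reads and 1101 TPM, lies far below Mir7669, with 224 reads and 32309 TPM.

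The entry with the most reads was Mir7669, 58 bases in an intron of Ubap2l on the same strand (chr3:90011153-90011210). It had 224 reads in 37 cells, which split by culture into 98, 34, 76 and 16. The cells with a value numbered 11, 9, 10 and 7, and the highest value of each culture was 3452, 1123, 2389 and 820 TPM. The mean was 528 ± 852, 275 ± 391, 410 ± 682 and 145 ± 265 TPM (SD over cells, n = 24, 23, 24 and 24). Both cultures of experiment 2 lay below both of experiment 1, and the conditions overlapped. By summed TPM this entry exceeded 96.2% of the genes with a value, and by reads 39.9%. Ubap2l, the host, a gene for a ubiquitin-associated protein, had reads in 36 of these 37 cells and in 93 of the 95 cells.

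Mir22hg, the host transcript of miR-22, had the second most reads, 175 in 23 cells (64, 40, 38 and 33 by culture). The length implied by its values was 1766 bases, and its mean level was 12.8 ± 24.95, 11.4 ± 34.6, 7.78 ± 23.8 and 14.4 ± 45.3 TPM. By summed TPM it ranked 46th among the entries. The 4 culture means were close together next to the spread over cells.

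Mir8112 was the entry seen in the most cells. Its 131 bases (chr6:71271671-71271801) lie in an exon of Krcc1, and it had 168 reads in 53 cells. The culture shLuc #2 stood apart, with a value in 20 of 23 cells, against 11 of 24 in shLuc #1, 13 of 24 in shCTCF #1 and 9 of 24 in shCTCF #2. Its mean level was 49.4 ± 64.2, 246 ± 214, 93.7 ± 135 and 66.5 ± 104 TPM by culture (SD over cells). The host Krcc1, a gene for a lysine-rich coiled-coil protein, had the same high culture, with 41.6 ± 32.1, 152 ± 102, 50.3 ± 30.9 and 58.1 ± 29.5 TPM, and had reads in each of the 53 cells. The means of the 2 WT cultures lay farther apart than those of any WT and any CTCF-KD culture.

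Mir1191 (chr7:27205536-27205655), in an exon of BC024978, had 159 reads in 17 cells, with 56, 65, 22 and 16 reads by culture. Its values were concentrated, with 33 reads in one cell and single reads in 5 cells. BC024978 had reads in each of these 17 cells and in 65 of the 95 cells. Over all cells the 120 bases of the entry held 159 reads, while BC024978, with a counted length of 2756 bases, held 291. The mean level was 145 ± 448 and 199 ± 482 TPM in WT, against 66.4 ± 230 and 95.2 ± 297 TPM in CTCF-KD. Both CTCF-KD means lay below both WT means, by a fitted log2 change of -1.09 (SE 0.39, limma adjusted p = 0.610). On RPM (reads per 1000000 recovered reads) the same fit gave -1.07 (SE 0.99, limma adjusted p = 0.816).

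Mir3091, shown above, lies in an intron of Rps21, a ribosomal protein gene, and had 102 reads in 20 cells (33, 21, 44 and 4 by culture). Its mean level was 166 ± 435, 104 ± 302, 163 ± 296 and 40.8 ± 157 TPM. Rps21 had reads in all 95 cells, and its median was 70 reads in the cells with Mir3091 and 23 reads in the cells without it. Rps21 itself followed the experiments, with a mean of 1454 and 1344 TPM in the cultures #1 and 427 and 425 TPM in the cultures #2. Mir3091 had fewer reads in each culture #2 than in either culture #1, and the cells with a value numbered 7, 3, 8 and 2 by culture. The medians of Rps21 above pool the cultures, so their difference cannot be told apart from that between the experiments.

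Other entries with many reads were Mir1931 in an intron of Cdk17 (69 reads in 15 cells), Mir20a (67 in 9), Mir6357 opposite an exon of Poli (64 in 13), Mir7681 opposite an intron of Hecw2 (61 in 11) and Mir3064 (58 in 28). Mir7681 also held the highest single value, 3564 TPM from 21 reads in a cell of shCTCF #2. Mir1931 shows how a shallow cell weighs. Its mean in shCTCF #2, 63.2 TPM, came from 3 reads in 1 cell, where they were worth 1516 TPM. In shLuc #1 no cell had more than 9 reads on this entry, and the highest level was 658 TPM. Cdk17, a cyclin-dependent kinase gene, had reads in 5 of the 15 cells with Mir1931 and in 48 of the 95 cells.

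Several widely seen entries had few reads in any cell. Mir703, opposite an intron of Cfap299, was a single read in each of its 18 cells (9, 4, 3 and 2 by culture), and these reads gave between 44.8 and 112 TPM. Mir1982, in Oaz1, the gene of ornithine decarboxylase antizyme, had 21 reads in 17 cells, at most 2 in any cell. Mir5128, in an intron of Strbp, had 33 reads in 16 cells, at most 4 in any cell, and Mir130c, opposite an exon of Kdelc2, had 40 reads in 15 cells, at most 9 in any cell. Mir6385, opposite an exon of Pml, was the reverse case, with 42 reads in 4 cells, of which 24 were in 1 cell of shLuc #1 (1852 TPM).

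Whether an entry was counted went with the level of the gene around it. Of the rows inside a gene of the same strand that was itself a row of the table, 1 of 192 (0.521%) was counted where the host was at 0 in every cell. The share was 6 of 73 (8.22%) for hosts with a mean above 0 to 1 TPM, 16 of 122 (13.1%) above 1 to 10 TPM, 70 of 232 (30.2%) above 10 to 100 TPM and 33 of 67 (49.3%) above 100 TPM. These are descriptions over rows, some of which share a host, and the host mean is a length-scaled level. Of rows with no overlapping gene, 11 of 236 (4.66%) were counted. Rows in an intron of a same-strand gene were counted in 90 of 532 cases (16.9%), with 939 reads, and rows in an exon in 28 of 171 (16.4%), with 683 reads. Rows in an exon found only in transcripts outside the GENCODE basic set were counted in 24 of 62 cases (38.7%), with 391 reads.

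**Figure D2:**
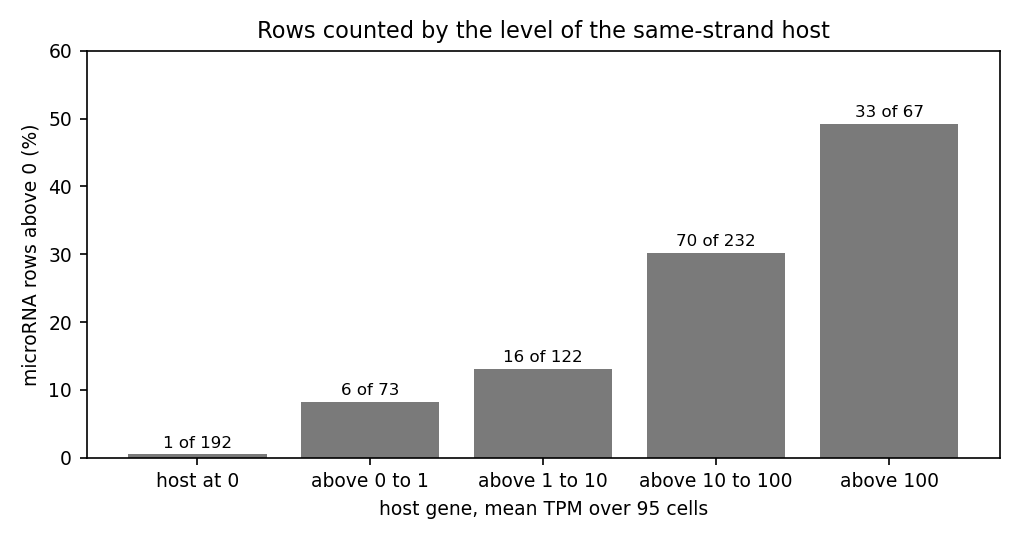
Bars give the percentage of microRNA rows with a value above 0 in at least 1 of 95 cells, by the mean TPM of the host gene on the same strand, with the counted and total rows above each bar. The share rises from 0.521% for hosts at 0 to 49.3% for hosts above 100 TPM.

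Within cells the link to the host was looser. For 127 counted entries with a same-strand host in the table, 522 pairs of an entry and a cell had a value, and the host had reads in the same cell in 441 of them (84.5%). Over all kept cells, weighted by the number of cells of each entry, hosts had reads in 74.3%. For 19 entries the host had no reads in any of the cells with the entry. Entries opposite an intron (18 of 74 rows, 24.3%) or opposite an exon (10 of 26, 38.5%) were counted as well. The strand setting of the counting is not given in the sources used here, so for these 28 entries reads of the opposite gene cannot be told apart from reads of the hairpin's own strand.

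Entries of the Mir17 cluster occurred together in cells. The polycistron is a well-known regulator of lymphocyte growth and a target of Myc. Mir17, Mir18, Mir19a and Mir20a were rows of the table, as was Mir17hg, and Mir19b-1 and Mir92-1 were not. The length implied by the values of the row Mir17hg was 80 bases, equal to that of the RefSeq hairpin of Mir92-1, so which sequence of the cluster this row counts was not settled. Together the 5 entries had 168 reads in 12 cells, and 8 of these cells had 2 or more of the entries. Cell S33 of shCTCF #1 held 53 of the reads, with 14 on Mir17, 15 on Mir18, 4 on Mir19a, 16 on Mir20a and 4 on Mir17hg. Cell S5 of shLuc #1 held 47 (13, 8, 1, 19 and 6 in the same order) and cell S42 of shCTCF #1 held 32 (10, 4, 2, 14 and 2). The other 9 cells held between 1 and 8 reads each. Of these 3 cells, 1 was WT and 2 were CTCF-KD.

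**Figure D3:**
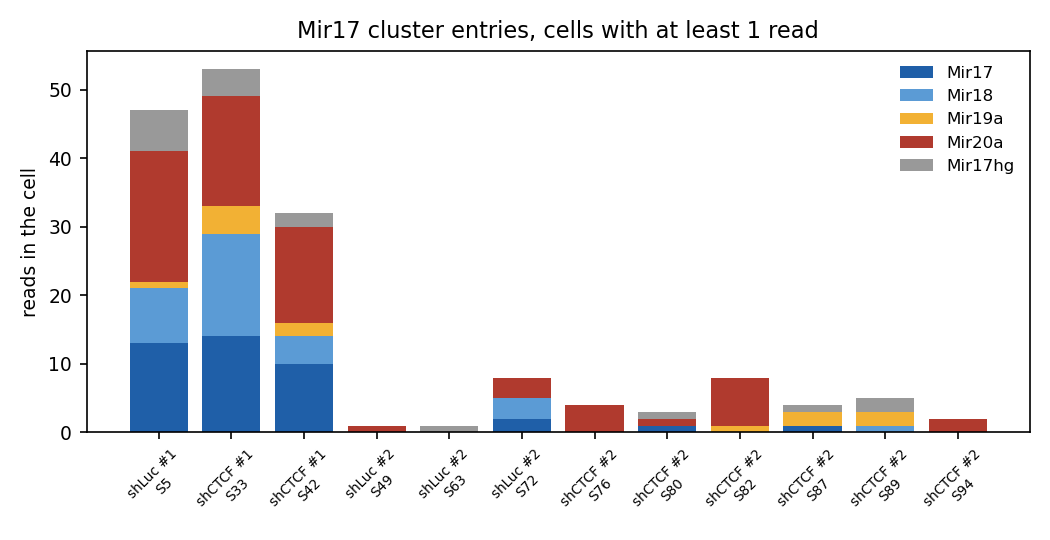
Stacked bars give the recovered reads on each of the 5 entries of the Mir17 cluster in the 12 cells with at least 1 such read, labelled by culture and cell. Cells S5, S33 and S42 hold 47, 53 and 32 reads on all 5 entries, and the other cells hold 8 or fewer.

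By culture the cluster was uneven. Mir20a had 19, 4, 30 and 14 reads, from 1, 2, 2 and 4 cells. Its mean was 64.3 ± 315, 19.1 ± 75.5, 79.7 ± 271 and 86.5 ± 240 TPM, with a fitted log2 change of 1.21 (SE 0.64, limma adjusted p = 0.720). Mir19a had 1, 0, 6 and 5 reads and was listed at 0 in shLuc #2. In Mcm7, the host of a related cluster and a replication helicase gene, Mir25 had 32 reads in 12 cells, Mir93 had 10 reads in 3 cells, and Mir106b was at 0 in every kept cell. Mcm7 had reads in each of the cells with Mir25 or Mir93.

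Among microRNAs known from T cells, 6 of 10 rows were counted, all of them in few cells. Mir142, a microRNA of blood cells, had 19 reads in 6 cells (7, 1, 10 and 1 by culture). It lies wholly inside Mir142b on the opposite strand, which had 15 reads in 7 cells, and 5 of the 8 cells with either had both. The miR-181 family, which tunes T-cell receptor signalling in thymocytes, was seen as Mir181a-1 (8 reads in 4 cells), Mir181a-2 (5 in 2) and Mir181b-2 (7 in 2). Mir21a, in an exon of Vmp1, had 14 reads in 4 cells (8, 4, 2 and 0 by culture). Mir155hg had 15 reads in 3 cells, of which 7 were in shLuc #2 and 8 in shCTCF #2. Mir150, Mir155, Mir146 and Mir223 were at 0 in every kept cell. Of the 11 let-7 rows only Mirlet7d and Mirlet7g were counted, with 2 reads in 1 cell of shCTCF #2 and 1 read in 1 cell of shLuc #1.

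Before the conditions were compared, Ctcf and the cell identity were looked at. Ctcf had a mean of 60.3 ± 76.8 and 37.1 ± 45.5 TPM in WT, against 15.96 ± 27.4 TPM in shCTCF #1 and 44.9 ± 50.01 TPM in shCTCF #2 (SD over cells). It was lower in the culture labelled shCTCF #1 than in its control and was not lower in the culture labelled shCTCF #2, so the direction of each comparison below follows the labels. By the methods, knockdown was checked in each population by RT-qPCR and Western blotting before capture, and those assays are not part of these data. Of 10 T-cell markers, 8 were in the table and 7 had a mean of at least 10 TPM. Summed, the T-cell markers lay between 7757 and 8211 TPM in the WT cultures and between 5673 and 5784 TPM in the CTCF-KD cultures, and their part in the results was not tested. Of the B-cell markers Cd79b, Ms4a1 and Pax5 were at 0 in every cell, as were Lyz2, Cd14 and Adgre1 of the myeloid and all erythroid markers in the table. Summed, the myeloid markers lay between 0.119 and 0.178 TPM in WT and between 2.05 and 3.602 TPM in CTCF-KD, and their part in the results was likewise not tested. Fewer cells with an entry and less RNA per cell cannot be told apart in culture means.

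Every kept cell had at least 2 entries and at most 17. A cell had 8.54 ± 3.04 and 7.87 ± 2.97 entries in WT, against 8.21 ± 3.48 and 6.21 ± 2.96 in CTCF-KD (SD over cells), and the ranges of the 4 cultures overlapped (3 to 15, 3 to 14, 2 to 17 and 2 to 13). The difference between CTCF-KD and WT was -0.997 entries (exact permutation p = 0.667, 2 against 2 cultures). It was -0.333 in experiment 1 and -1.66 in experiment 2. Without shCTCF #2 it was 0.0027. With each cell thinned to 80000 reads, which left out 1 shallower cell of shCTCF #2, the means were 5.08, 4.57, 4.63 and 4.83, and the difference was -0.0987. The number of different entries seen in a culture was 93, 79, 89 and 84. With all reads, the median number of genes per cell was higher in both CTCF-KD cultures, and its part in the entries per cell was not tested.

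**Figure D4:**
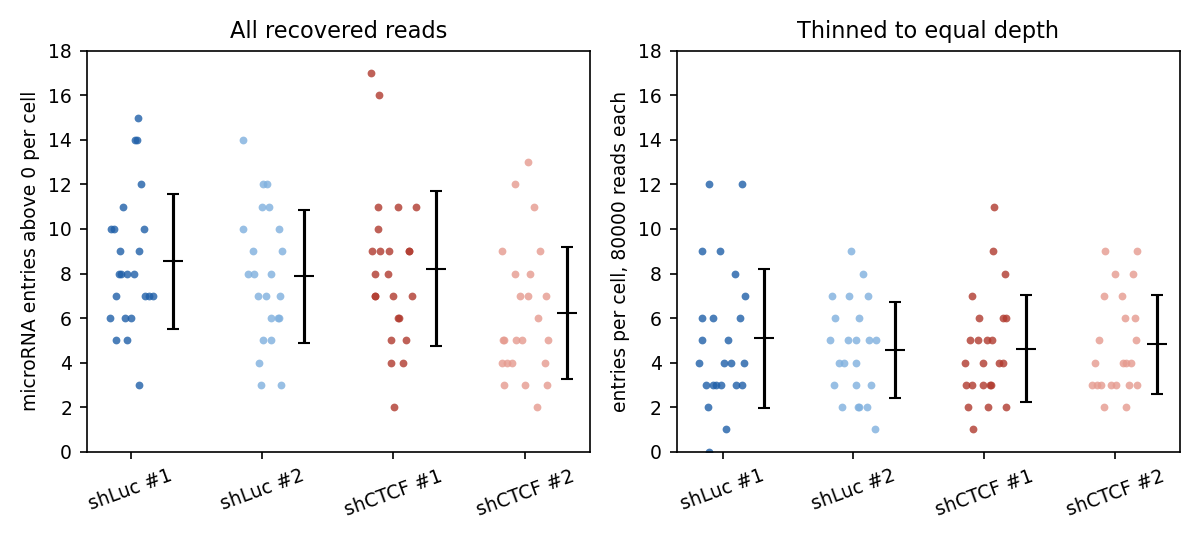
Points are cells, with the number of microRNA entries above 0 on the y axis by culture, and the horizontal tick and bar give the mean and SD over cells. With all reads (left) the means lie between 6.21 and 8.54, and with 80000 reads per cell (right) between 4.57 and 5.08.

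The summed level did not separate the conditions beyond what 4 cultures can show. The mean per cell was 2886 and 2597 TPM in WT, against 2399 and 2360 TPM in CTCF-KD. Both CTCF-KD cultures lay below both WT cultures, with a difference of -362 TPM and the smallest p that this design allows (exact permutation p = 0.333). In reads the cultures overlapped, with 129 and 113 RPM in WT and 118 and 107 RPM in CTCF-KD. That difference was -8.69 RPM (exact permutation p = 0.667), with -11.2 in experiment 1 and -6.20 in experiment 2.

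Changes of single entries were tested with limma on log2(mean TPM + 1) of the 4 cultures, over 11980 genes that passed 1 on the log2(TPM + 1) scale in 2 or more cells. Of the 181 entries 94 entered the fit and 87 did not, and 44 of the 94 had values in 3 or fewer cells. No gene passed an adjusted p of 0.05, so 0 of the 94 entries and 0% of all genes were called, and the smallest adjusted p was 0.585. Of the entries 45 were higher and 49 lower in CTCF-KD, with a median log2 change of -0.04, against 0.04 for all genes. At an unadjusted p under 0.05 there were 22 entries (23.4%), 8 higher and 14 lower, against 7.61% of all genes (4.79% higher and 2.82% lower). Nothing is read from that count, since an entry can pass the filter through the condition where it is high. Of the 22 entries, 12 were listed at 0 in both cultures of a condition and 15 had values in 5 or fewer cells. On the mean of log2(TPM + 1) over cells the count was 13 (13.8%), against 16.6% of all genes. On RPM in place of TPM, 0 of the 94 entries had an unadjusted p under 0.05, against 7.67% of all genes. The pseudocount of 1 was kept there, although 1 read in a culture was worth less than 1 RPM. It pulls the changes of entries with few reads toward 0, as for Mir7049 (-4.51 on TPM and -0.67 on RPM). The counts on TPM and RPM are therefore not on like scales, and nothing is read from the one on RPM.

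Mir3064 was both among the entries seen in the most cells and among the 3 with the lowest limma statistic, with a value in 24 WT cells and 4 CTCF-KD cells. The entry lies in an exon of a Ddx5 transcript, and Ddx5 is an RNA helicase that works with the microprocessor. It had a value in 12 of 24 cells of shLuc #1, 12 of 23 of shLuc #2, 3 of 24 of shCTCF #1 and 1 of 24 of shCTCF #2. The reads on the entry numbered 19, 34, 3 and 2. The median reads per cell were 247622, 230493, 234292 and 131114, and the part of depth or of genes per cell was not tested. Its mean level was 98.5 ± 130 and 197 ± 278 TPM in WT and 14.4 ± 39.02 and 26.1 ± 128 TPM in CTCF-KD, so the culture means did not overlap. The fitted log2 change was -2.78 (SE 0.56, limma adjusted p = 0.585), with -2.69 in experiment 1 and -2.87 in experiment 2. Since Mir3064 was picked in part by the limma statistic on these same means, their separation and the like changes in both experiments are no support. On the mean of log2(TPM + 1) over cells the limma adjusted p was 0.0501. On RPM, with the same pseudocount of 1, the log2 change was -1.78 (limma adjusted p = 0.656). The host had a mean of 80.97 ± 76.4, 175 ± 129, 71.9 ± 42.8 and 106 ± 58.7 TPM, with reads in each of the 28 cells that had Mir3064. For Ddx5 the fitted log2 change was -0.45 (SE 0.49, limma adjusted p = 0.870), and its conditions overlapped. Its median was 59.5 reads in the cells with Mir3064 and 20 reads in the other cells. These medians pool the cultures, and a link between the entry and Ddx5 within cultures was not tested.

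The other entries at the ends of the limma statistic rested on a handful of cells. Mir7049, in an intron of Pak4, had 4 and 3 reads in 1 cell of each WT culture and was listed at 0 in both CTCF-KD cultures. Mir181b-2 had 5 and 2 reads in 1 cell of each WT culture and was likewise listed at 0 in CTCF-KD. At the other end, Mir7656, in an intron of Slc9a9, had 5 and 3 reads in the CTCF-KD cultures, Mir7067 had 2 and 1, and Mir3068, in an intron of Alkbh1, had 3 and 4. These 3 entries were listed at 0 in both WT cultures. None had a limma adjusted p below 0.585.

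Of the 94 tested entries, 18 were higher in CTCF-KD in both experiments, 23 were lower in both and 28 had opposite signs. The same counts were not made over all genes, so nothing about the entries is read from them. Of the 20 tested entries seen in 10 or more cells, 2 were higher in CTCF-KD in both experiments, 9 were lower in both and 9 had opposite signs. Of the 74 seen in fewer cells, 16 were higher in both, 14 were lower in both, 19 had opposite signs and 25 had no change in at least 1 experiment.

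**Figure D5:**
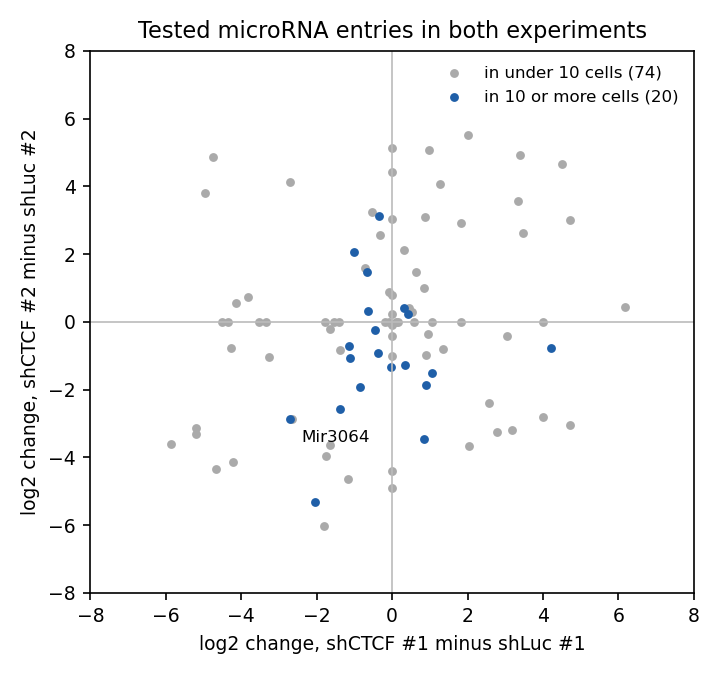
Each point is one of the 94 tested microRNA entries, with the log2 change of mean TPM + 1 (CTCF-KD minus WT) in experiment 1 on the x axis and in experiment 2 on the y axis. Blue points were seen in 10 or more cells (20 entries) and grey points in fewer (74), and Mir3064 lies at -2.69 and -2.87.

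The genes that make and use microRNAs were counted at ordinary gene lengths and gave no call either. Of 27 listed genes in the table, 24 were tested, 11 of them higher and 13 lower in CTCF-KD, with a median log2 change of -0.08. None had an unadjusted p under 0.05 in the limma fit, and the smallest adjusted p was 0.696, for Ran (log2 change 0.73), the GTPase that drives export with Xpo5. Drosha, the nuclear RNase, had a mean of 37.3 ± 65.1, 30.3 ± 63.98, 20.1 ± 20.9 and 26.7 ± 54.8 TPM, with a log2 change of -0.52 (SE 0.56, adjusted p = 0.868). Its RNA-binding partner Dgcr8 was seen in 9 cells, at culture means of 0.544, 0.517, 0.501 and 0.879 TPM. Xpo5 had 4.82 ± 12.7, 17.4 ± 39.4, 20.8 ± 40.5 and 36.5 ± 67.1 TPM, and its log2 change of 1.47 had an SE of 0.85 (adjusted p = 0.752). Dicer1, which cuts the hairpin in the cytoplasm, had 9.27 ± 12.3, 21.1 ± 32.8, 7.47 ± 8.14 and 24.2 ± 37.3 TPM. Ago2, which holds the mature strand, had 12.4 ± 18.6, 4.37 ± 11.6, 2.65 ± 4.03 and 13.3 ± 29.7 TPM. For both, the conditions overlapped. Ago4, Lin28a and Lin28b were at 0 in every kept cell.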

How the data were processed

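Reads aligned uniquely to GRCm38 by STAR were counted on RefSeq genes with HTSeq by the authors, who deposited TPM, which scales for gene length and cell total. How reads on overlapping features were assigned is not given in the sources used here. All 96 cells came in 1 table, and 1 cell under 3000 genes was left out. Whole reads were recovered from the TPM steps (tolerance 0.001), with lengths from RefSeq hairpins and GENCODE M21, which also gave positions and hosts. The recovered reads per kept cell had a mean of 216081, so counts of single entries are imprecise. Culture values were compared by exact permutation tests, and genes by limma 3.58.1 in R 4.3.3 (trend, pseudocount 1, Benjamini-Hochberg at 0.05), checked on simulated reads. Cultures with the same number belong to 1 experiment in the methods, and their deviations from the condition means had a correlation of 0.175 over 11980 genes. Blocking by experiment changed no call. Nothing shows that cells or cultures come from separate infections beyond this, so p-values cover the spread between these cultures.

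Entries named are the 10 with most reads, the 10 in most cells, the 5 with the highest value, the 3 at each end of the limma statistic, and counted let-7, Mir17 cluster and T-cell entries, with hosts and pathway genes. Mir25, Mir93, Mir106b and Mir142b were named after their values were seen. The members and lists were chosen with earlier results of these data known.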

Additional observations from a re-analysis of the deposited data

Results flagged for a closer look

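For 8 of the named entries the change between CTCF-KD and WT had opposite signs in the 2 experiments, and the difference was not tested. The log2 change in experiment 2 minus that in experiment 1 was 0.97 for Mir22hg, -2.78 for Mir8112, -5.01 for Mir6357, 2.12 for Mir7681, -1.61 for Mir130c, -1.88 for Mir18, 2.91 for Mir17hg and 3.05 for Mir25. For Mir8112 the host Krcc1 had its highest mean in the same culture, shLuc #2. Mir6357 had 1 read in shLuc #1 and 32 in shLuc #2, against 20 and 11 in the CTCF-KD cultures. Outliers were not looked for, since each condition has 2 cultures.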

How the results depend on the processing

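The number of entries per cell kept its sign in the alternatives except without shCTCF #2 (0.0027), and leaving out a culture gave differences from -1.997 to 0.0027. Leaving out a culture gave -506 to -217 TPM and -16.4 to -0.948 RPM. In the paired analysis with the replicate block the difference in entries was -0.997 and 0 entries were called. Counting rows with a value in at least 2 cells lowered the entries from 181 to 94. On the mean of log2(TPM + 1) over cells limma called 46 genes, 44 of them higher, and 0 entries, with the median of all genes at 0.23. More genes were seen per cell in both CTCF-KD cultures, and the part of this in those calls was not tested. Of 32 named entries tested, 18 kept their sign in every alternative, 13 turned in at least 1, Mir181a-2 came to 0 without shLuc #1, and 0 were called in any. The sign of the log2 change turned when 1 culture was left out for Mir7669 (-1.39 to 0.10), Mir22hg (-0.57 to 0.24), Mir8112 (-1.63 to 0.67), Mir3091 (-1.66 to 0.30), Mir6357 (-0.89 to 4.34), Mir7681 (-0.37 to 1.19), Mir130c (-0.93 to 0.0033), Mir17 (-0.72 to 1.53), Mir18 (-1.38 to 1.27), Mir155hg (-0.83 to 1.62), Mir25 (-0.36 to 1.41) and Mir93 (-1.82 to 2.89). On RPM the sign turned for Mir1931 (-0.13) and Mir18 (0.35), on the mean of logs for Mir7681 (-0.17) and Mir18 (0.15), and with a pseudocount of 10 for Mir18 (0.0724). The cause was not tested. At this depth 1 read was worth 110 TPM on a short entry in the median cell, so smaller levels show only as 0 or as single reads.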
